A study of Mus musculus with 6 samples.

Results

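The genes described here are 10 genes that fat cells use to take up, store and release lipid, found by their symbols among the 41786 gene symbols counted in endometriosis-like lesions of mice. They are *Adipoq*, *Lep*, *Plin1*, *Cidec*, *Fabp4*, *Pparg*, *Lpl*, *Pnpla2*, *Lipe* and *Dgat2*. The study asked how niclosamide, an oral anthelmintic drug, affects such lesions. Grafts of uterus came from B6-GFP positive donors aged 6 weeks. They were stitched onto the inner abdominal wall of wild-type C57BL/6 recipients aged 8 weeks, all female, 3 days before dosing began. In the niclosamide group, recipients received 200 mg/kg body weight of the drug by mouth each day for 3 weeks. In the vehicle group, recipients with the same grafts received the carrier alone for the same time. Each group gave 3 stranded RNA-seq libraries of lesions collected in diestrus. Every library came from a single mouse except vehicle 1, which was made from RNA pooled over 4 mice. Uterine-derived tissue was dissected away from recipient tissue before extraction, and the counts do not separate donor from recipient cells.

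A white fat cell holds its triglyceride in a single large lipid droplet. Lipoprotein lipase frees fatty acids from circulating lipoproteins at the capillary wall, binding proteins carry them inside the cell, acyltransferases join them to glycerol, and perilipin on the droplet surface controls the access of lipases. PPAR-gamma, a nuclear receptor, drives the programme, and the mature cell secretes adiponectin and leptin. *Adipoq*, *Lep*, *Plin1* and *Cidec* are largely restricted to fat cells and were taken as their defining markers. The other members are also used elsewhere, *Fabp4* by macrophages and capillary endothelium, *Lpl* by muscle and macrophages, and *Dgat2* by several epithelia and the liver.

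All 10 genes had counts in every library and all 10 passed the filter on low counts. Library totals ran from 27797121 to 34797000 counts. Levels are given as CPM, counts relative to the library total after TMM scaling. Against the labelled tissue, uterine stroma, smooth muscle and epithelium markers were present in all 6 libraries, but so were skeletal muscle markers, with summed levels of 820.5 to 31032 CPM in niclosamide lesions and 4327 to 10723 CPM in vehicle lesions. Niclosamide 1 was the highest of the 6 libraries in all 10 of the skeletal muscle markers and niclosamide 2 the lowest in all 10. Of 4 structural RNAs, 3 were lower in every niclosamide library than in any vehicle library (*Rn7sk*, *Rmrp* and *Rpph1*), where 12.3% of all genes did not overlap between the groups. The unadjusted p was under 0.05 in 2 of them, against 6.92% of all genes, with adjusted p of 0.603 or more in all 4 by edgeR's quasi-likelihood test. The part of these differences in the results below was not tested.

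The 4 defining markers of fat cells varied together over these libraries, so the stretches before their starts are shown. The sequences are RefSeq's for GRCm38.p6, and 7 of the 10 members had an entry. They cover chr16:23146286-23146535 on the plus strand for *Adipoq*, chr6:29059971-29060194 on the plus strand for *Lep*, chr7:79732905-79733026 on the minus strand for *Plin1* and chr6:113435761-113436010 on the minus strand for *Cidec*, each read 5′ to 3′ toward the gene and ending before its first annotated base. Capitals mark matches to the C/EBP motif TTGCNNAA or to the CCAAT box CCAAT, on either strand.
Adipoq: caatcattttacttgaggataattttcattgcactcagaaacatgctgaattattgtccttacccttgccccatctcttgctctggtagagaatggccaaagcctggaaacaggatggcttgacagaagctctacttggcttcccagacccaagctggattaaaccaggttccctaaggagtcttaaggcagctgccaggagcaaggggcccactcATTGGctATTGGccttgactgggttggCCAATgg
Lep: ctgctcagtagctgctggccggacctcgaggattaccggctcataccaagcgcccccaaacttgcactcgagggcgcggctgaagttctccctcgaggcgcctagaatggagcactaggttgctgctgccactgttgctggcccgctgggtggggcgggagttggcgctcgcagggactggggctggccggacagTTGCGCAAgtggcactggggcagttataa
Plin1: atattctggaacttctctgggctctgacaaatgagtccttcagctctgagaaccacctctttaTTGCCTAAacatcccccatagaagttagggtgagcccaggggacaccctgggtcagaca
Cidec: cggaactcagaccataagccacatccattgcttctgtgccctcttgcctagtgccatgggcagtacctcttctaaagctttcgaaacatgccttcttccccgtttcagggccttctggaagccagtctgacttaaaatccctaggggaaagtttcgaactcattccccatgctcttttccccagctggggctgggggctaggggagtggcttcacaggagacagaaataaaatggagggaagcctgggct

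The motifs were searched on both strands in the 250 bases before each RefSeq start, over 32851 windows of that length, 11 of them belonging to 7 members. C/EBP proteins are transcription factors of fat cell differentiation that act beside PPAR-gamma. Their motif TTGCNNAA had a match in 4 of the 11 windows, belonging to *Lep*, *Plin1*, *Cidec* (at its second start, not printed) and *Pparg*, against 9.56% of all windows. The *Lep* match, TTGCGCAA, lay 55 to 48 bases before the RefSeq start of its window, which stands inside the gene as the files annotate it. CCAAT had a match in 3 of the 11 windows, belonging to *Adipoq* and *Pparg*, against 33.8% of all windows, and 3 of these matches stood in the *Adipoq* sequence above. The direct repeat bound by PPAR-gamma with RXR, AGGTCA followed by any 1 base and AGGTCA again, had a match in 0 of the 11 windows and in 0.0335% of all windows. A single AGGTCA, which the repeat contains, had a match in 2 of the 11 windows, both of *Pparg*, and in 14.0% of all windows. TATAAA had a match in 1 of the 11 windows, a *Pparg* window, and in 12.4% of all windows. These matches describe letters in short windows and say nothing of binding.

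No member differed between niclosamide and vehicle lesions beyond the spread between libraries. In the quasi-likelihood fit of edgeR, adjusted by Benjamini-Hochberg over 17364 genes, 0 of the 10 members passed an adjusted p of 0.05, against 0% of all genes tested, with adjusted p of 0.939 to 0.987. At an unadjusted p under 0.05 there were 0 members, against 6.92% of all genes. DESeq2's Wald test called 0 members, against 1.03% of the genes it tested, and limma-voom called 0 members, against 0% of all genes. The niclosamide and vehicle libraries overlapped in all 10 members, whereas they did not overlap in 12.3% of all genes. All 10 fitted log2 fold changes of niclosamide over vehicle were above 0, against 53.7% of all genes above 0 and 46.3% below 0, with a median of 0.36 over the members and 0.02 over all genes.

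Those positive signs rested most on the lesion of niclosamide 1. It had the highest level of 9 members, and without it 9 of the 10 fold changes were below 0, against 49.7% of all genes, with a median of -0.50. *Dgat2* was the exception in both counts. Leaving out vehicle 3 put 4 of the 10 below 0, between -0.21 and -0.03. Leaving out niclosamide 2 put 1 below 0, *Dgat2*, and leaving out vehicle 2 put 1 below 0, *Pparg*. Without niclosamide 1, *Lep*, *Plin1* and *Cidec* had an unadjusted p under 0.05 by edgeR, 3 of the 10 members against 5.61% of all genes. After adjustment 0 members passed (lowest adjusted p = 0.868), against 0% of all genes. Niclosamide 1 was singled out here because it was highest in most members, and leaving it out lowers their fold changes by that choice alone. Those 3 genes also shared the same order of libraries, so they are not 3 separate results. How many of all genes were highest in niclosamide 1 was not counted, so counts of genes highest in it stand here without that share.

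**Figure D1:**
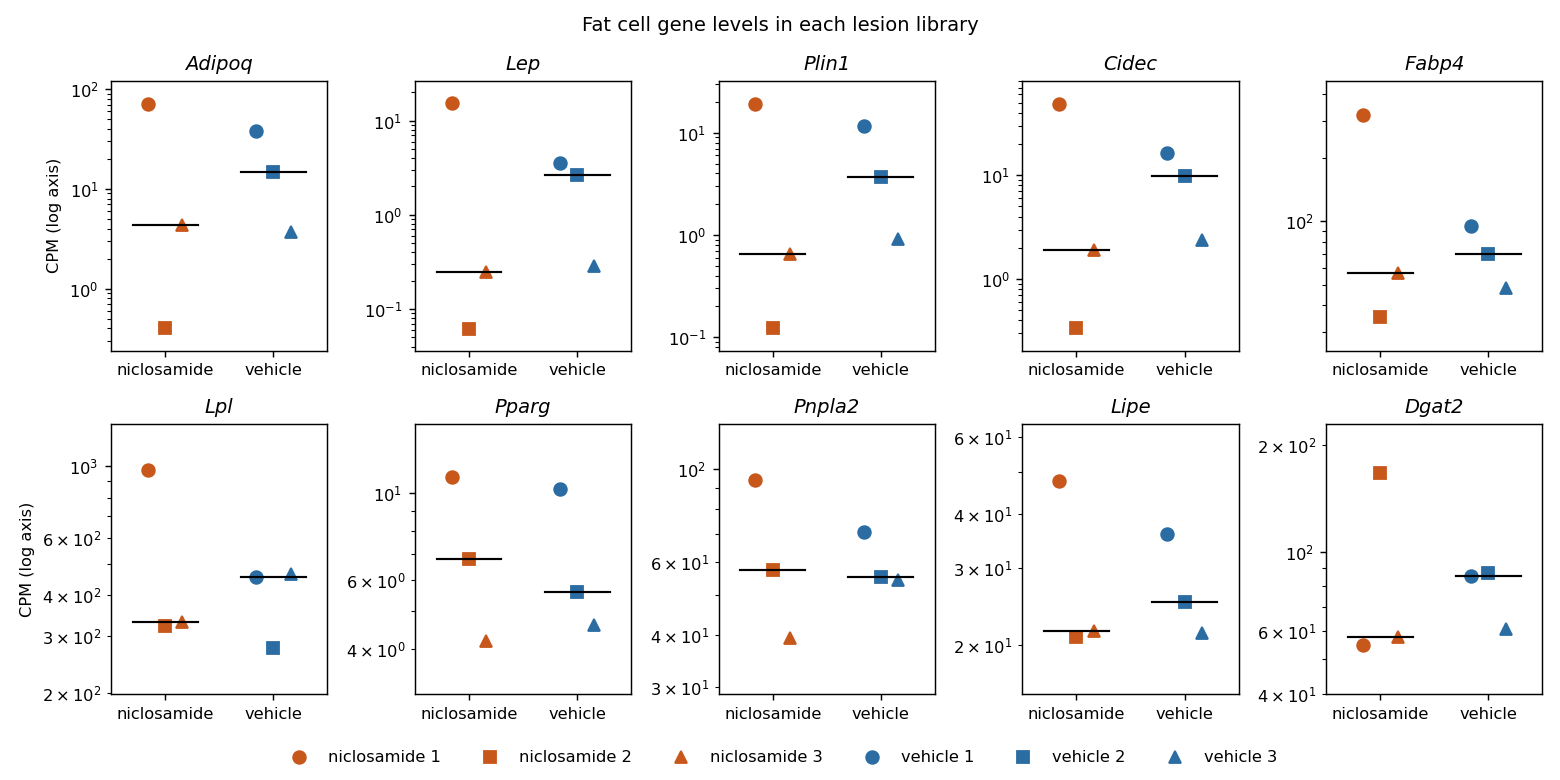
CPM of each of the 10 genes in every library (log axes, with a different range in each panel), with niclosamide lesions left and vehicle lesions right and a black line at each group's median. The niclosamide libraries spread from 71.6 to 0.402 CPM in Adipoq and enclose all 3 vehicle libraries, while Pnpla2 and Lipe span less than 3-fold.

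The adipokine gene *Adipoq* encodes adiponectin, a hormone secreted by fat cells that raises insulin sensitivity. It lies on chromosome 16 at 23146536 to 23157968 (GRCm38.p3), and its counts came from 1232 bases of annotated exons. *Adipoq* had 71.6, 0.402 and 4.39 CPM in niclosamide lesions 1 to 3, against 38.4, 14.8 and 3.68 CPM in vehicle lesions 1 to 3. Niclosamide 1 was the highest of the 6 libraries and niclosamide 2 the lowest, so the vehicle lesions fell between lesions of the treated group. The means were 25.5 ± 40.0 CPM in niclosamide lesions and 19.0 ± 17.7 CPM in vehicle lesions (SD, n = 3 each), and the log2 fold change was 0.42 ± 1.60 (SE; edgeR quasi-likelihood, adjusted p = 0.984). Niclosamide 1 exceeded niclosamide 2 by 178-fold, with a 95% exact interval of 103.9 to 335, which covers counting error only. In bulk tissue, fewer fat cells and less RNA of this kind per fat cell cannot be told apart.

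*Lep* encodes leptin, the satiety hormone whose release follows fat mass. The *Lep* gene spans 29060195 to 29073877 on chromosome 6. *Lep* had 15.4, 0.0618 and 0.249 CPM in niclosamide lesions 1 to 3, from 452, 2 and 8 counts, against 3.54, 2.66 and 0.283 CPM in vehicle lesions 1 to 3, from 97, 97 and 9 counts. Only niclosamide 1, vehicle 1 and vehicle 2 held more than a trace. The log2 fold change was 1.27 ± 1.79 (SE; edgeR quasi-likelihood, adjusted p = 0.968), and -3.77 ± 1.28 without niclosamide 1 (adjusted p = 0.868). The ratio of niclosamide 1 to niclosamide 2 was 249, with a counting interval of 68.4 to 2058 because niclosamide 2 had only 2 counts.

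The lipid droplet gene *Plin1* encodes perilipin 1, the coat protein that gates lipases on the droplets of fat cells. The *Plin1* gene spans 79721164 to 79732904 on chromosome 7. *Plin1* had 19.1, 0.124 and 0.653 CPM in niclosamide lesions 1 to 3, against 11.7, 3.68 and 0.911 CPM in vehicle lesions 1 to 3. The same libraries stood at the top and the bottom as for leptin, with means of 6.64 ± 10.8 CPM in niclosamide lesions and 5.42 ± 5.58 CPM in vehicle lesions (SD, n = 3 each). The log2 fold change was 0.29 ± 1.66 (SE; edgeR quasi-likelihood, adjusted p = 0.987). It was -3.80 ± 1.35 without niclosamide 1.

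*Cidec* encodes FSP27, which fuses small droplets into the large one of a white fat cell. The *Cidec* gene spans 113424634 to 113435760 on chromosome 6. *Cidec* had 48.5, 0.340 and 1.90 CPM in niclosamide lesions 1 to 3, against 16.3, 9.89 and 2.36 CPM in vehicle lesions 1 to 3. Again the niclosamide libraries held both extremes, with means of 16.9 ± 27.4 CPM in niclosamide lesions and 9.53 ± 7.0 CPM in vehicle lesions (SD, n = 3 each). The log2 fold change was 0.83 ± 1.59 (SE; edgeR quasi-likelihood, adjusted p = 0.972), and -3.10 ± 1.11 without niclosamide 1 (adjusted p = 0.868).

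For these 4 markers the direction of the group difference also depended on the model. Their fold changes lay between -1.51 and -1.10 by limma-voom, which averages log2 values. They also lay below 0, between -1.11 and -0.56, in the count model of edgeR with the replicate number as a block. Neither direction passed the threshold in any of the fits.

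The spread of these 4 genes over the 6 libraries was among the widest of all genes. The range of log2 CPM was 7.27 for *Adipoq*, 6.95 for *Lep*, 6.91 for *Cidec* and 6.68 for *Plin1*, which placed them 23rd, 29th, 31st and 38th of 17364 genes. Among the vehicle lesions alone, the highest exceeded the lowest by 10.4-fold for *Adipoq*, 12.5-fold for *Lep*, 12.8-fold for *Plin1* and 6.93-fold for *Cidec*. In *Lep*, *Plin1* and *Cidec* the order of the libraries was the same, niclosamide 1, vehicle 1, vehicle 2, vehicle 3, niclosamide 3 and niclosamide 2. *Adipoq* differed from that order only in vehicle 3 and niclosamide 3, its neighbours at 3.68 and 4.39 CPM. The order of those 2 libraries lay within counting error in the other 3 genes, at 8 counts in niclosamide 3 against 9 in vehicle 3 for *Lep*, 21 against 29 for *Plin1* and 61 against 75 for *Cidec*, with overlapping exact 95% intervals.

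**Figure D2:**
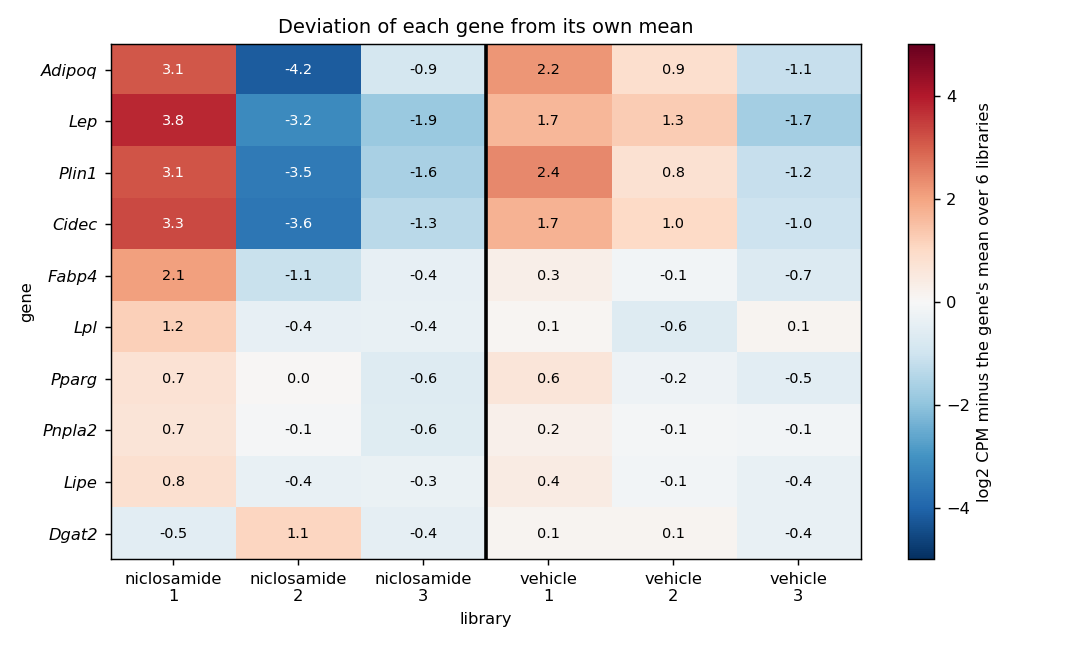
Log2 CPM (prior count 2) of each gene minus its own mean over the 6 libraries, with niclosamide lesions left of the black line and vehicle lesions right of it. Adipoq, Lep, Plin1 and Cidec are red in niclosamide 1, vehicle 1 and vehicle 2 and blue in the other libraries, the lower genes are paler, and Dgat2 is highest in niclosamide 2.

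The proportions of the 4 markers varied less between libraries than their levels, but beyond counting error. Per 100 *Adipoq* counts, *Plin1* had 26.7, 30.8 and 14.9 counts in niclosamide lesions 1 to 3, against 30.4, 24.8 and 24.8 counts in vehicle lesions 1 to 3. The exact 95% intervals of niclosamide 3 (8.94 to 23.7) and vehicle 1 (26.7 to 34.5) did not meet, while the levels behind them differed far more. *Cidec* had 67.8, 84.6 and 43.3 counts per 100 *Adipoq* counts in niclosamide lesions 1 to 3, against 42.6, 66.7 and 64.1 counts in vehicle lesions 1 to 3. The *Cidec* intervals of niclosamide 1 (63.3 to 72.5) and vehicle 2 (58.2 to 76.3) lay above that of vehicle 1 (38.0 to 47.6). *Lep* varied most in this measure, with 21.5, 15.4 and 5.67 counts per 100 *Adipoq* counts in niclosamide lesions 1 to 3, against 9.21, 18.0 and 7.69 counts in vehicle lesions 1 to 3. The *Lep* intervals of niclosamide 1 (19.4 to 23.8) and vehicle 2 (14.3 to 22.3) lay above those of vehicle 1 (7.4 to 11.4) and niclosamide 3 (2.4 to 11.5). These intervals cover counting error only and compare libraries, not treatments.

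**Figure D3:**
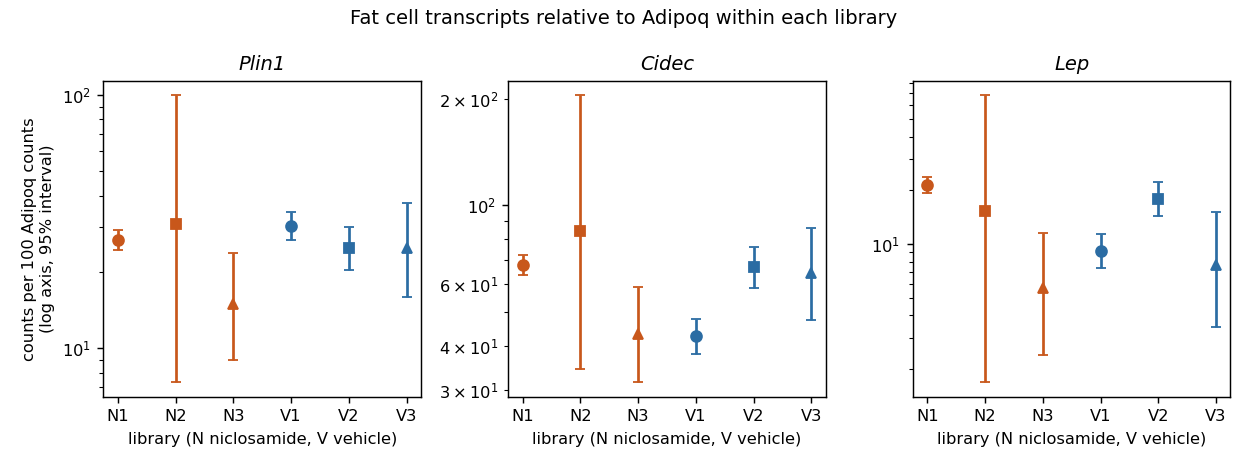
Counts of Plin1, Cidec and Lep per 100 Adipoq counts in each library (log axes), niclosamide lesions (N) left and vehicle lesions (V) right, with exact 95% counting intervals. The interval of niclosamide 2 is wide because that library had only 13 Adipoq counts, and the Lep ratio is highest in niclosamide 1 at 21.5 per 100.

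*Fabp4*, the fatty acid carrier of fat cells, followed the markers from a higher floor. The *Fabp4* gene spans 10204342 to 10208597 on chromosome 3. *Fabp4* had 318, 35.4 and 56.9 CPM in niclosamide lesions 1 to 3, against 94.8, 69.7 and 48.1 CPM in vehicle lesions 1 to 3. Niclosamide 1 stood apart at 3.36 times the next library, and the other 5 libraries lay within a 3-fold range. The means were 137 ± 158 CPM in niclosamide lesions and 70.8 ± 23.4 CPM in vehicle lesions (SD, n = 3 each), and the log2 fold change was 0.95 ± 0.83 (SE; edgeR quasi-likelihood, adjusted p = 0.939). Without niclosamide 1 it was -0.63 ± 0.35, and the niclosamide mean was 46.2 CPM.

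*Lpl*, the lipase that frees fatty acids from lipoproteins for uptake, had the highest CPM of the members. The *Lpl* gene spans 68880555 to 68906932 on chromosome 8. *Lpl* had 972, 321 and 331 CPM in niclosamide lesions 1 to 3, against 456, 275 and 464 CPM in vehicle lesions 1 to 3. Only niclosamide 1 was far from the rest, at 2.09 times the next library, and its lowest library was vehicle 2 rather than niclosamide 2. The log2 fold change was 0.44 ± 0.49 (SE; edgeR quasi-likelihood, adjusted p = 0.961), and -0.29 ± 0.27 without niclosamide 1. Exons of *Lpl* and *Lipe* overlap antisense genes of the annotation, and the authors counted reads by strand.

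The regulator gene *Pparg* was low and varied less than the fat cell markers. It lies on chromosome 6 at 115360879 to 115490404. *Pparg* had 10.9, 6.80 and 4.20 CPM in niclosamide lesions 1 to 3, against 10.2, 5.60 and 4.62 CPM in vehicle lesions 1 to 3. Niclosamide 1 and vehicle 1 were nearly equal at the top, and niclosamide 2, which had almost no adiponectin transcript, came next. The log2 fold change was 0.10 ± 0.45 (SE; edgeR quasi-likelihood, adjusted p = 0.985).

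Of the lipases, *Pnpla2* encodes ATGL, which takes the first fatty acid from triglyceride, and *Lipe* encodes hormone-sensitive lipase, which takes the next. *Pnpla2*, on chromosome 7 at 141455188 to 141460743, had 94.2, 57.3 and 39.3 CPM in niclosamide lesions 1 to 3, against 70.7, 55.2 and 54.1 CPM in vehicle lesions 1 to 3. *Lipe*, on chromosome 7 at 25379527 to 25398704, had 47.5, 20.9 and 21.5 CPM in niclosamide lesions 1 to 3, against 36.0, 25.1 and 21.3 CPM in vehicle lesions 1 to 3. In both genes niclosamide 1 was highest and vehicle 1 next, while the remaining 4 libraries lay below them, with niclosamide 3 the lowest for *Pnpla2* and niclosamide 2 the lowest for *Lipe*. The log2 fold changes were 0.08 ± 0.32 for *Pnpla2* and 0.13 ± 0.38 for *Lipe* (SE; edgeR quasi-likelihood, adjusted p = 0.984 and 0.979).

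*Dgat2*, which encodes an enzyme of the last step of triglyceride synthesis, ran against the others. It lies on chromosome 7 at 99153663 to 99182713. *Dgat2* had 54.9, 166 and 57.8 CPM in niclosamide lesions 1 to 3, against 85.6, 87.0 and 60.8 CPM in vehicle lesions 1 to 3. Its highest library was niclosamide 2, where the fat cell markers were lowest, and its lowest was niclosamide 1, where they were highest. The log2 fold change was 0.26 ± 0.46 (SE; edgeR quasi-likelihood, adjusted p = 0.970), and it was -0.48 ± 0.20 without niclosamide 2 (adjusted p = 0.498, the lowest over all fits). Uterine epithelium markers had summed levels of 346 and 2041 CPM in niclosamide 1 and 2, also the lowest and highest of the 6 libraries, and their part in the *Dgat2* values was not tested.

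**Figure D4:**
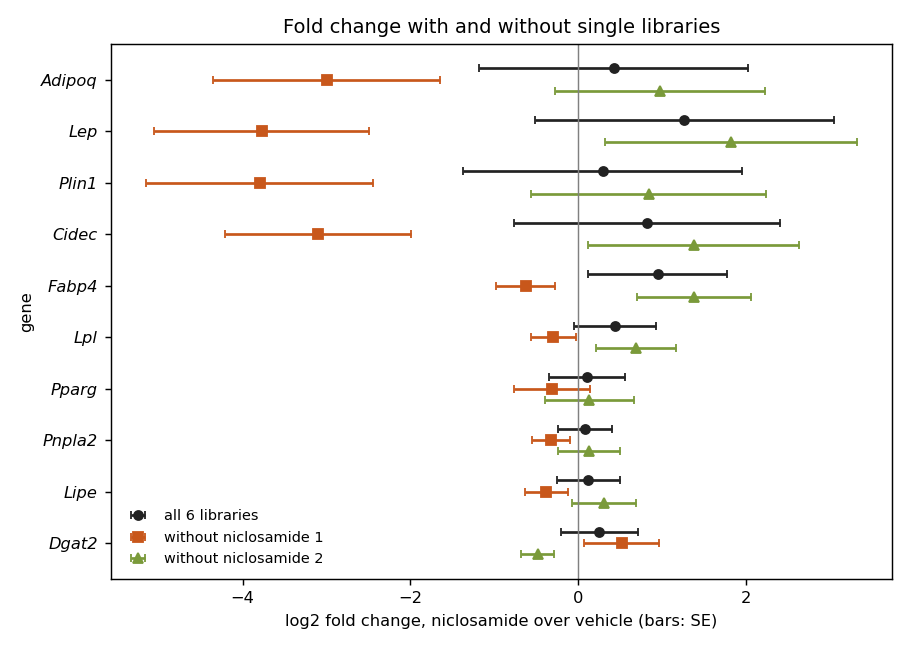
Log2 fold change of niclosamide over vehicle for each gene (points, with SE bars) in the fit of all 6 libraries and in fits without niclosamide 1 or niclosamide 2. Without niclosamide 1 the values of Adipoq, Lep, Plin1 and Cidec lie between -3.80 and -3.00, and without niclosamide 2 only Dgat2 lies below 0.

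How much of each transcript was left in the library with the fewest fat cell markers differed widely between members. The level in niclosamide 2 was 0.402% of that in niclosamide 1 for *Lep*, 0.561% for *Adipoq*, 0.646% for *Plin1* and 0.701% for *Cidec*. The order among these 4 lay within counting error, from 2, 13, 4 and 11 counts in niclosamide 2. *Lep* was there below the limit of 3 counts that a count of 0 allows. It was 11.1% for *Fabp4*, 33.0% for *Lpl*, 43.9% for *Lipe*, 60.8% for *Pnpla2*, 62.1% for *Pparg* and 302% for *Dgat2*. The 4 defining markers were nearly absent from niclosamide 2, which follows in part from choosing both libraries by these same genes. The members also used by other cells kept 11.1% or more, and the part of those cells was not tested.

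Levels per length differed between members by over 100-fold. Scaled to exon length, the median over the 6 libraries was 97.2 RPKM for *Lpl*, 72.5 for *Fabp4*, 32.5 for *Dgat2*, 20.7 for *Pnpla2*, 7.80 for *Adipoq*, 4.89 for *Lipe*, 3.38 for *Cidec*, 1.89 for *Pparg*, 1.11 for *Plin1* and 0.449 for *Lep*. This order changed between libraries. In niclosamide 1 *Adipoq* reached 58.1 RPKM, above *Pnpla2* at 34.7 RPKM and *Dgat2* at 24.4 RPKM, and in niclosamide 2 it had 0.326 RPKM, below *Lipe* at 4.38 RPKM and *Pparg* at 2.07 RPKM.

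The genes whose pattern over the 6 libraries was most like the mean of *Adipoq*, *Plin1* and *Cidec* included further fat cell genes. Likeness was measured as the root-mean-square difference of centred log2 CPM over 6 libraries, among 13264 genes with a mean log2 CPM of at least 1. The members and all genes with a Gm number, Rik or LOC name were left out of this ranking. *Cfd*, which encodes adipsin, a complement protease secreted by fat cells, was first with a difference of 0.23. It had 247, 1.89 and 13.5 CPM in niclosamide lesions 1 to 3, against 175, 48.3 and 15.9 CPM in vehicle lesions 1 to 3. *Retn*, the mouse fat cell hormone resistin, was next at 0.26, with 31.4, 0.340 and 1.59 CPM in niclosamide lesions 1 to 3, against 16.4, 7.09 and 1.35 CPM in vehicle lesions 1 to 3. The rest of the 10 were *Cyp2e1*, *Pnpla3*, *Igkv4-70*, *Pck1*, *Scd1*, *Plin4*, *Ighv1-50* and *Myh2*, with differences of 0.59 to 1.28. *Scd1*, a fatty acid desaturase gene, had the highest level of these, with 981, 60.6 and 91.8 CPM in niclosamide lesions 1 to 3, against 447, 274 and 98.0 CPM in vehicle lesions 1 to 3. None of the 10 passed the test between groups by edgeR's quasi-likelihood test (adjusted p of 0.958 to 0.995). On the same scale *Lep* differed by 0.54 and *Fabp4* by 1.5, while *Lpl*, *Pparg*, *Pnpla2*, *Lipe* and *Dgat2* differed by 1.94 to 2.68.

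Markers of other cell types did not share one order with the fat cell markers. The mean log2 CPM of *Adipoq*, *Plin1* and *Cidec* was 5.34, -1.61 and 0.88 in niclosamide lesions 1 to 3, against 4.28, 3.04 and 1.05 in vehicle lesions 1 to 3. Skeletal muscle, which forms the body wall, had marker means of 11.20, 6.10 and 9.61 log2 CPM in niclosamide lesions 1 to 3, against 8.38, 9.53 and 9.66 log2 CPM in vehicle lesions 1 to 3. The extremes were shared, but vehicle 1 was next to the top for fat cell markers and next to the bottom for muscle markers. Macrophage marker means were 7.61, 7.40 and 6.69 in niclosamide lesions 1 to 3, against 7.43, 6.53 and 6.81 in vehicle lesions 1 to 3, so niclosamide 2 was high in macrophage markers while nearly devoid of fat cell markers. Summed endothelium markers varied less, from 507 to 666 CPM in niclosamide lesions and from 567 to 824 CPM in vehicle lesions. For single genes of that list the highest library exceeded the lowest by 1.44-fold (*Tie1*) to 3.13-fold (*Tek*). The part of these cell types in the levels of *Fabp4* and *Lpl* was not tested.

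**Figure D5:**
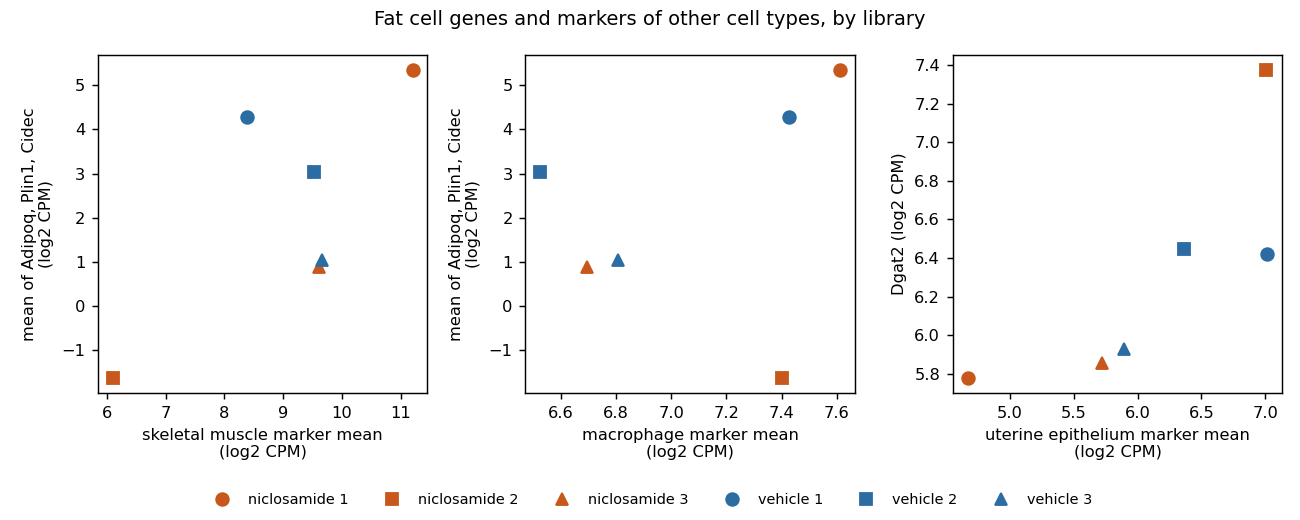
Each point is 1 library; the first 2 panels set the mean log2 CPM of Adipoq, Plin1 and Cidec against the mean of skeletal muscle or macrophage markers, and the last sets Dgat2 against uterine epithelium markers. Niclosamide 2 is lowest in fat cell and muscle markers but high in macrophage markers (7.40), and Dgat2 is lowest in niclosamide 1 and highest in niclosamide 2, while the epithelium marker mean is lowest in niclosamide 1 and nearly equal at the top in niclosamide 2 and vehicle 1.

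Other genes of lipid storage were followed in lists, described here by counts and medians of log2 fold change, beside a median of 0.02 over all genes, 53.7% of all genes above 0 and 6.92% with an unadjusted p under 0.05. In every list 0 genes passed the test after adjustment over all genes, against 0% of all genes. Among lipid droplet proteins, 10 of 11 tested were above 0, with a median of 0.13, and 0 had an unadjusted p under 0.05. Niclosamide 1 was the highest library in 6 of these 11. The broadly used coat gene *Plin2* had 167 to 249 CPM in niclosamide lesions and 131 to 236 CPM in vehicle lesions, and *Plin3* had 58.9 to 67.7 CPM in niclosamide lesions and 51.0 to 72.4 CPM in vehicle lesions. Unlike *Plin1*, neither was depleted in niclosamide 2. Of the 11 tested, 5 were lowest in niclosamide 2, among them *Plin4* with 3.18 CPM there, and 2 were highest in it.

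Genes of triglyceride breakdown had a median of 0.22, with 6 of 9 above 0 and 1 with an unadjusted p under 0.05. That gene was *Pde3b*, a phosphodiesterase through which insulin restrains lipolysis. *Pde3b* had 55.3, 68.2 and 67.3 CPM in niclosamide lesions 1 to 3, against 41.1, 39.8 and 41.4 CPM in vehicle lesions 1 to 3. The groups did not overlap, but the log2 fold change of 0.64 ± 0.12 (SE) did not pass (edgeR quasi-likelihood, adjusted p = 0.521). *Mgll*, the monoglyceride lipase gene, had 34.0 to 59.9 CPM in niclosamide lesions and 26.9 to 44.9 CPM in vehicle lesions. The beta-3 adrenergic receptor gene *Adrb3*, which is largely a fat cell gene and was named after its values were seen, had 6.93, 0.278 and 0.342 CPM in niclosamide lesions 1 to 3, against 3.68, 2.0 and 1.13 CPM in vehicle lesions 1 to 3.

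For triglyceride synthesis the median was -0.04, 4 of 11 genes lay above 0 and 0 had an unadjusted p under 0.05. *Gpam*, which adds the first fatty acid to glycerol phosphate, had 64.2 to 157 CPM in niclosamide lesions and 97.2 to 141 CPM in vehicle lesions. *Agpat6*, a gene of the same enzyme family, had 74.3 to 84.9 CPM in niclosamide lesions and 85.3 to 101 CPM in vehicle lesions (adjusted p = 0.786 by edgeR's quasi-likelihood test). For fatty acid synthesis the median was -0.22, 3 of 10 genes lay above 0 and 0 had an unadjusted p under 0.05. In that list *Scd2* had 340, 1097 and 632 CPM in niclosamide lesions 1 to 3, against 915, 1070 and 732 CPM in vehicle lesions 1 to 3. Its lowest library, niclosamide 1, was the highest of *Scd1*.

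For fatty acid uptake and activation the median was 0.41, 8 of 11 genes lay above 0, against 53.7% of all genes, and 2 had an unadjusted p under 0.05, against 6.92% of all genes. These were *Acsl4*, an acyl-CoA synthetase gene, with a log2 fold change of 0.68 ± 0.20 (SE), and *Angptl4*, which encodes a secreted inhibitor of lipoprotein lipase, with 0.41 ± 0.17 (SE). Neither passed by edgeR's quasi-likelihood test (adjusted p = 0.603 and 0.721). *Angptl4* had 38.8, 39.1 and 39.1 CPM in niclosamide lesions 1 to 3, against 24.6, 27.1 and 36.3 CPM in vehicle lesions 1 to 3. The scavenger receptor gene *Cd36* had 152 to 416 CPM in niclosamide lesions and 113 to 254 CPM in vehicle lesions, and the lipoprotein receptor gene *Vldlr* had 79.1 to 144 CPM in niclosamide lesions and 118 to 179.6 CPM in vehicle lesions.

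Adipogenic transcription factors had a median of 0.13, with 7 of 11 above 0 and 1 with an unadjusted p under 0.05, *Fosl2*. This AP-1 subunit gene had 114, 201 and 114 CPM in niclosamide lesions 1 to 3, against 288, 214 and 210.5 CPM in vehicle lesions 1 to 3, and did not pass (log2 fold change -0.73 ± 0.27 SE, edgeR quasi-likelihood adjusted p = 0.675). *Cebpb* had 60.7 to 135 CPM in niclosamide lesions and 78.2 to 178 CPM in vehicle lesions. PPAR partners and corepressors had a median of 0.03, with 6 of 10 above 0 and 0 with an unadjusted p under 0.05. *Ncor1* had 149 to 174 CPM in niclosamide lesions and 138 to 175 CPM in vehicle lesions.

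Other secreted and membrane proteins of fat cells, the list that holds *Cfd* and *Retn*, had a median of -0.01 with 4 of 9 above 0. Niclosamide 1 was the highest library in all 9 of these genes and niclosamide 2 the lowest in 8 of 9. *Slc2a4*, the insulin-responsive glucose transporter gene of fat and muscle, had 119.5, 6.03 and 37.7 CPM in niclosamide lesions 1 to 3, against 34.3, 48.9 and 53.3 CPM in vehicle lesions 1 to 3. Receptors for the adipokines were steadier. *Adipor1* had 167 to 212 CPM in niclosamide lesions and 155 to 187 CPM in vehicle lesions, and *Adipor2* had 125 to 184 CPM in niclosamide lesions and 123 to 135 CPM in vehicle lesions. That list had a median of 0.09, with 3 of 4 above 0.

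In the brown and beige fat list, 3 of 8 genes were too low to test, *Ucp1*, *Cidea* and *Elovl3*. *Ucp1*, the uncoupling protein that defines brown fat, had at most 0.0729 CPM in any library, below the level that a count of 0 allows. *Cidea* had at most 0.373 CPM in niclosamide lesions and 0.292 CPM in vehicle lesions. The other 5 genes were tested, and niclosamide 1 was the highest library in 3. These 5 had a median of 0.54 with 4 above 0, against 53.7% of all genes. Among them *Dio2*, a thyroid hormone activating deiodinase also used outside fat, had 73.6 to 195 CPM in niclosamide lesions and 115 to 496 CPM in vehicle lesions, and *Cox8b*, which is also a muscle gene, had 3.28 to 39.4 CPM in niclosamide lesions and 9.70 to 18.2 CPM in vehicle lesions.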

How the data were processed

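The authors deposited whole-number counts without normalization. Per the file headers, featureCounts 1.4.6-p4 made them from STAR alignments on the reverse strand, adding up exons by gene symbol of the GRCm38.p3 annotation. The headers set no option for reads aligned to several places or genes. The submitters' processing notes also name Trimmomatic 0.33, STAR 2.4.2a and edgeR 3.12.0. Libraries were grouped by their titles and analysed in R 4.3.3 with edgeR 4.0.16. The filter was filterByExpr (minimum count 10, minimum total 15), the scaling TMM and the fit a robust quasi-likelihood model with the group as its term, with p-values adjusted by Benjamini-Hochberg over 17364 genes at a threshold of 0.05. Each SE was taken as the size of the fold change (log2) divided by √F. RPKM is CPM per kilobase of exons. Totals of 27797121 to 34797000 counts put 3 counts, the limit that a count of 0 allows, at 0.0862 to 0.108 CPM. Intervals are exact and cover counting error only. Named genes were the 10 members, the 2 genes of highest mean log2 CPM in each list, and the 10 genes of most similar pattern. A gene that this rule names is not reported here. *Adrb3* and the list genes named for an unadjusted p were added after their values were seen. The members and lists were chosen with earlier results of these data known. The alternatives were RLE, upper quartile and no composition scaling, DESeq2 1.42.0, limma-voom (limma 3.58.1) without and with quality weights, no and a stricter filter (CPM of at least 1 in 3 libraries), a replicate block, and leaving out each library. The procedure was tested on simulated data with the same dispersion for every gene. That setting does not cover genes as variable as the fat cell markers.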

Additional observations from a re-analysis of the deposited data

How the results depend on the processing

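The count of members past the threshold was 0 in all 15 alternatives. Over all genes it was 178 by DESeq2, 1 with no filter on low counts and 0 in the other 13. The sign of the members' fold changes was not stable. Leaving out 1 library, the lowest and highest log2 fold changes were -3.00 and 1.45 for *Adipoq*, -3.77 and 1.84 for *Lep*, -3.80 and 1.52 for *Plin1*, -3.10 and 1.46 for *Cidec*, -0.63 and 1.39 for *Fabp4*, -0.29 and 0.70 for *Lpl*, -0.31 and 0.51 for *Pparg*, -0.32 and 0.34 for *Pnpla2*, -0.38 and 0.37 for *Lipe* and -0.48 and 0.52 for *Dgat2*. The lowest value came without niclosamide 1 in 9 genes and without niclosamide 2 in *Dgat2*. The median over the members ran from -0.50 (without niclosamide 1) to 0.88 (without vehicle 1). By limma-voom the fold changes were -1.35 for *Adipoq*, -1.10 for *Lep*, -1.51 for *Plin1* and -1.21 for *Cidec*, and with quality weights -0.84, -0.57, -0.98 and -0.81 in the same order. With the replicate number as a block they were -0.79 for *Adipoq*, -0.56 for *Lep*, -1.11 for *Plin1* and -0.80 for *Cidec*. The other 6 members kept their sign in those 3 fits, and all 10 kept it under the other scalings, filters and DESeq2. Deviations of same-numbered libraries correlated at -0.08, -0.09 and 0.27 over genes, and those of differently numbered libraries at -0.36 to 0.36. With 3 libraries per group these values cannot decide whether the numbers pair the libraries. The block changed no call. At 2 to 29 counts in their low libraries, *Lep* and *Plin1* are limited by depth there. The cause of the spread between lesions was not tested.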

Other observations

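Body weight was in nearly the same order as the fat cell markers, which was noticed after the values were seen and is given as a description. Permutation tests of it were run only after it was seen and are not used here. The labels give 22.5, 18.9 and 19.3 g for niclosamide 1 to 3, against 20.1, 19.9 and 19.3 g for vehicle 1 to 3, where the first vehicle value is a mean over the 4 pooled mice. *Lep*, *Plin1* and *Cidec*, which share a pattern and are not independent of each other, had the 6 libraries in the order of the weights. *Adipoq*, *Fabp4* and *Lipe* differed from it only in niclosamide 3 and vehicle 3. Those mice differed in weight by less than 0.1 g, and the counts of *Lep*, *Plin1* and *Cidec* in these libraries lay within counting error of each other. Among all 17364 genes tested, 33 (0.190%) had exactly the order of the weights and 13 had exactly the reverse. Counting also orders with 1 neighbouring pair exchanged, as in *Adipoq*, *Fabp4* and *Lipe*, 151 genes (0.870%) followed the weights.

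*Pparg*, *Pnpla2*, *Lpl* and *Dgat2* did not have that order. *Pparg* and *Pnpla2* were higher in niclosamide 2, the lightest mouse, than in niclosamide 3. *Lpl* was lowest in vehicle 2, and *Dgat2* had its top level in niclosamide 2 and its bottom level in the heaviest mouse, niclosamide 1. The skeletal muscle marker mean was highest in niclosamide 1 and lowest in niclosamide 2, but next to the lowest in vehicle 1.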
